A study of Medicago ruthenica with 9 samples.

Results

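The miR2111 family was examined in small RNA libraries from leaves of Medicago ruthenica, a perennial forage legume. Its members were all miRNA names in the deposited table that carry the family number of miR2111 and no other, and 7 of the 595 names met this rule. Seedlings grew 8 to a pot, and treatment started at an age of 4 weeks. Rewatered plants (RW) went without water for 15 days and were sampled 2 days after the soil had been saturated again. Drought-stressed plants (DS) were sampled at the end of the same 15 days without water. Control plants (CK) were watered every 3 days and sampled on the same day as DS. RW leaves were thus taken 2 days later than DS and CK leaves. In comparisons with RW, sampling day and treatment cannot be told apart. Soil moisture was at 20% in DS and RW on the last dry day and above 80% in CK. No nutrients were given to any group, and all plants were of a single cultivar. There were 3 libraries per group, called biological replicates by the study, and how many plants went into a library was not stated in the methods or labels.

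miR2111 is best known as a mobile signal of legumes. In Lotus japonicus it is made in leaves, moves through the phloem to the root and there silences TOO MUCH LOVE, an F-box/kelch-repeat gene that limits the number of nodules. In Medicago truncatula, peptide signals from the root set its level in the shoot through receptor kinases, and in Arabidopsis thaliana it accumulates under phosphate starvation. A plant miRNA is cut from a hairpin as a duplex of a 5p and a 3p strand. For miR2111 the 5p strand is the guide that pairs with the target, and the other strand is usually degraded. Roots were not measured in these libraries, and whether the plants carried nodules was not stated in the methods or labels.

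The sequences are shown because they sort the 7 names into the guide strand, its partner and a name that resembles neither. All are DNA letters from the deposited table, 5′ to 3′, with the seed (bases 2 to 8) in capitals.
mtr-miR2111a-5p: tAATCTGCatcctgaggttta
vvi-miR2111-5p: tAATCTGCatcctgaggtcta
aly-miR2111a-5p_1ss19TG: tAATCTGCatcctgaggtgta
mtr-miR2111a-5p_R-3: tAATCTGCatcctgaggt
mtr-miR2111l: aTCCTTGGaatgcagattatc
mtr-MIR2111n-p3: aGCCTTGGagtgcagattatc
mdm-MIR2111b-p3_2ss16CT20AG: tTAGGATTgggtaatttgcg
The first 4 shared the seed AATCTGC, which no other name in the table had. Counted from the 5′ end, vvi-miR2111-5p differed from mtr-miR2111a-5p by T19C and aly-miR2111a-5p_1ss19TG by T19G. The form mtr-miR2111a-5p_R-3 was 18 nt long and lacked the last 3 bases. These 4 names are the 5p strand.

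Both mtr-miR2111l and mtr-MIR2111n-p3 could be laid against mtr-miR2111a-5p as the other strand of a duplex. With the 3′ overhang of 2 bases that the plant processing enzymes leave, mtr-miR2111l formed 15 Watson-Crick and 2 G:U pairs over 19 opposed positions, with 2 unpaired. mtr-MIR2111n-p3 formed 14 Watson-Crick and 4 G:U pairs, with 1 unpaired, and differed from mtr-miR2111l by T2G and A10G. These 2 names are treated as the 3p strand. The arm of mtr-miR2111l is not in its name and was assigned from this pairing alone.

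The sequence of mdm-MIR2111b-p3_2ss16CT20AG went against its label. It was named after an apple precursor with 2 substitutions, shared only the first base with mtr-miR2111a-5p, and left 9 of 18 opposed positions unpaired in the same layout. Its values are given, but it was counted with neither strand.

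The table ties 4 of the members to assembled transcripts. mtr-miR2111a-5p and mtr-MIR2111n-p3 were matched to the same transcript, TRINITY_DN24480_c0_g1. The short form mtr-miR2111a-5p_R-3 was matched to TRINITY_DN23711_c0_g2, which the study annotates as an F-box/kelch-repeat protein, the kind of gene that miR2111 targets. Which strand of that transcript it matched was not analysed here. mdm-MIR2111b-p3_2ss16CT20AG was matched to TRINITY_DN25554_c0_g1, and the other 3 names were matched to no transcript. Chromosomal positions were not analysed here.

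Values are normalized counts, that is, read counts that the authors multiplied by a factor for each library. They summed to 1253110 to 1718280 in RW, 1279160 to 1490570 in DS and 1237470 to 1503170 in CK. The number of names above 0 was 347 to 376 in RW, 283 to 305 in DS and 423 to 489 in CK, and the smallest value above 0 was 2.30 to 3.09 in RW, 3.94 to 4.21 in DS and 0.652 to 1.55 in CK, so low values are cut off at different levels in the groups. All 7 members were above 0 in all 9 libraries, which held for 186 of the 595 names, and all 7 passed the filter for testing (3 or more libraries with a value of 5 or more), as did 339 names in all. Names of 4 families (miR5368, miR2916, miR6300 and miR3630) were treated here as fragment-like. Their likeness to rRNA or tRNA fragments and any bearing on RNA quality were not tested. These names held 1.80 to 2.35% of the table in RW, 1.08 to 2.28% in DS and 0.482 to 0.609% in CK.

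The family held a small share of the table in leaves, although its most abundant members ranked high among all names. Together its members made up 0.151, 0.139 and 0.180% of the table in the RW libraries, 0.327, 0.193 and 0.179% in the DS libraries and 0.132, 0.179 and 0.0996% in the CK libraries. DS replicate 1 stood highest, and the other DS libraries lay beside the highest RW and CK libraries. By the mean of the 9 libraries the members came in the order mtr-miR2111a-5p, mtr-miR2111l, vvi-miR2111-5p, mtr-MIR2111n-p3, aly-miR2111a-5p_1ss19TG, mtr-miR2111a-5p_R-3 and mdm-MIR2111b-p3_2ss16CT20AG, at ranks 32, 41, 48, 106, 129, 151 and 187 of 595. Neighbours in this order kept it in 6 to 9 of the 9 libraries. Only vvi-miR2111-5p and mtr-MIR2111n-p3 had ranges over the 9 libraries that did not overlap, so the table held 3 abundant members and 4 scarce ones.

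**Figure D1:**
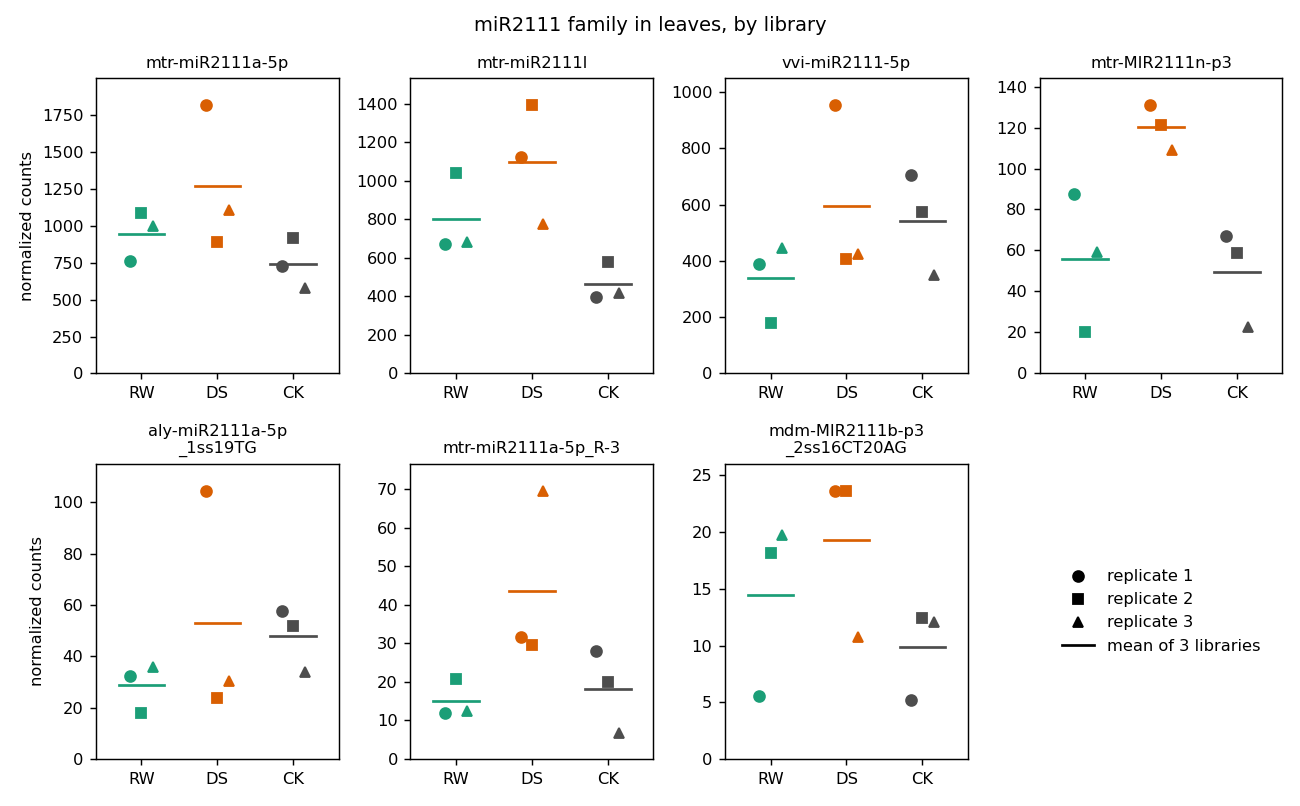
Normalized counts (vertical axes, each from 0) of the 7 miR2111 members in the RW, DS and CK libraries. Symbols are the 3 replicates and bars are group means. mtr-miR2111l, mtr-MIR2111n-p3 and mtr-miR2111a-5p_R-3 have all DS libraries above all CK libraries, and the last 2 also have all RW libraries below all DS libraries.

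In the comparison of DS with CK, which asks what drought did, mtr-miR2111l of the 3p strand rose and was the only member that passed the test. It had 1126, 1392 and 776 normalized counts in DS leaves, against 398.6, 577 and 420 in CK leaves. Every DS library was above every CK library, and the means were 1098 ± 309 and 465 ± 97.6 (SD, n = 3 each), a 2.36-fold difference. On the log2 (value + 1) scale the difference was 1.22 with SE 0.31 and a 95% interval of 0.54 to 1.89 (limma, adjusted p = 0.0443 over all 339 tested names). An exact 2-sided permutation test gave p = 0.1, the smallest that 3 against 3 libraries allow.

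This was 1 member of 7, against 5.31% of all tested names that passed in DS vs. CK and 2.06% that passed with higher values in DS. The latter were 7 names, and 5 of these belonged to the families treated as fragment-like. The call lay close to the threshold. It was lost when any of 7 single libraries was left out (RW replicates 1 and 3, DS replicates 1 and 2, and all CK replicates), with limma adjusted p-values of 0.0322 to 0.171 over the 9 such fits and log2 differences of 1.03 to 1.45. Scaling to the total of the table, TMM scaling, a fit of DS and CK alone and leaving out the fragment-like families also ended it (limma adjusted p = 0.0545, 0.0694, 0.0665 and 0.0700), with differences of 1.12 to 1.23. The fragment-like share given above was also higher in every DS library than in every CK library, and its part in the result was not tested.

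The less abundant 3p form, mtr-MIR2111n-p3, had 131, 121 and 109 normalized counts in DS leaves, against 67.3, 58.9 and 22.6 in CK leaves. The groups did not overlap, and the means were 120 ± 11.0 and 49.6 ± 23.7 (SD, n = 3 each), a ratio of 2.43. Its log2 difference of 1.40 (SE 0.57) had a limma adjusted p of 0.213 and did not pass, and it was 0.92 without CK replicate 3. The exact permutation test gave p = 0.1 for this form too. The pairwise test of the study's methods, with an unadjusted threshold of 0.05, made the opposite choice between the 3p forms and called mtr-MIR2111n-p3 but not mtr-miR2111l. That test called 1 member of 7 and 5.55% of all 595 names.

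Among the 5p forms, the most abundant member, mtr-miR2111a-5p, had 1816, 887 and 1105 normalized counts in DS leaves, against 730, 919 and 579 in CK leaves. The groups overlapped, since DS replicate 2 was below CK replicate 2 and DS replicate 1 stood well above the rest. Its log2 difference of 0.73 (SE 0.32) did not pass in limma (adjusted p = 0.236, unadjusted p = 0.0412, with 19.5% of all tested names under 0.05 unadjusted), and without DS replicate 1 it was 0.44.

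The short form mtr-miR2111a-5p_R-3 had 31.5, 29.5 and 69.6 normalized counts in DS leaves, against 27.9, 19.8 and 6.79 in CK leaves. All DS libraries were above all CK libraries, but DS replicate 2 and CK replicate 1 were nearly level. Its log2 difference of 1.30 (SE 0.61) did not pass (limma adjusted p = 0.273), and it was 0.75 without CK replicate 3. In units of the step between neighbouring low values of a library, its values lay between 20 and 107 steps, against 1053 to 2964 for mtr-miR2111a-5p. A library's lowest value above 0 was itself 2.5 to 5 steps, so a step is not shown to be a read.

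The position-19 forms had differences near 0 in this comparison, and whether they differ from the other members was not tested. vvi-miR2111-5p had 953, 406 and 423 normalized counts in DS leaves, against 704, 575 and 351 in CK leaves, and aly-miR2111a-5p_1ss19TG had 105, 23.6 and 30.3 in DS, against 57.5, 51.9 and 33.9 in CK. For both, DS replicate 1 was the highest of the 9 libraries and the groups overlapped. The log2 differences were 0.07 (SE 0.45) and -0.14 (SE 0.58), with limma adjusted p-values of 0.968 and 0.925. For aly-miR2111a-5p_1ss19TG the direction depended on the scale, as its mean was higher in DS (52.8 against 47.7 in CK) while the difference of the log2 values was negative. Without DS replicate 1 the value of vvi-miR2111-5p was -0.33, and TMM scaling also turned it, to -0.025.

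mdm-MIR2111b-p3_2ss16CT20AG, the name that resembles neither strand, had 23.6, 23.6 and 10.7 normalized counts in DS leaves, against 5.22, 12.4 and 12.1 in CK leaves. DS replicate 3 fell within the CK range, and the log2 difference of 0.90 (SE 0.65) did not pass (limma adjusted p = 0.471) and was 0.54 without CK replicate 1.

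Counted together, 3 of the 7 members had every DS library above every CK library, against 9.73% of all tested names, and none had every DS library below every CK library, against 18.3%. The median log2 difference of the members was 0.90, with 6 positive and 1 negative, whereas the median of all tested names was -0.36 and 34.8% of them were positive. These counts are descriptions, as the members other than mdm-MIR2111b-p3_2ss16CT20AG overlap in sequence or can pair with each other and are not independent. That name, which resembles neither strand, was included in the counts, and its own difference is the median of 0.90. Low values were cut off at a higher level in DS, and the part of this in the median of all tested names was not tested, whereas all 7 members were listed above 0 in every DS library.

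**Figure D2:**
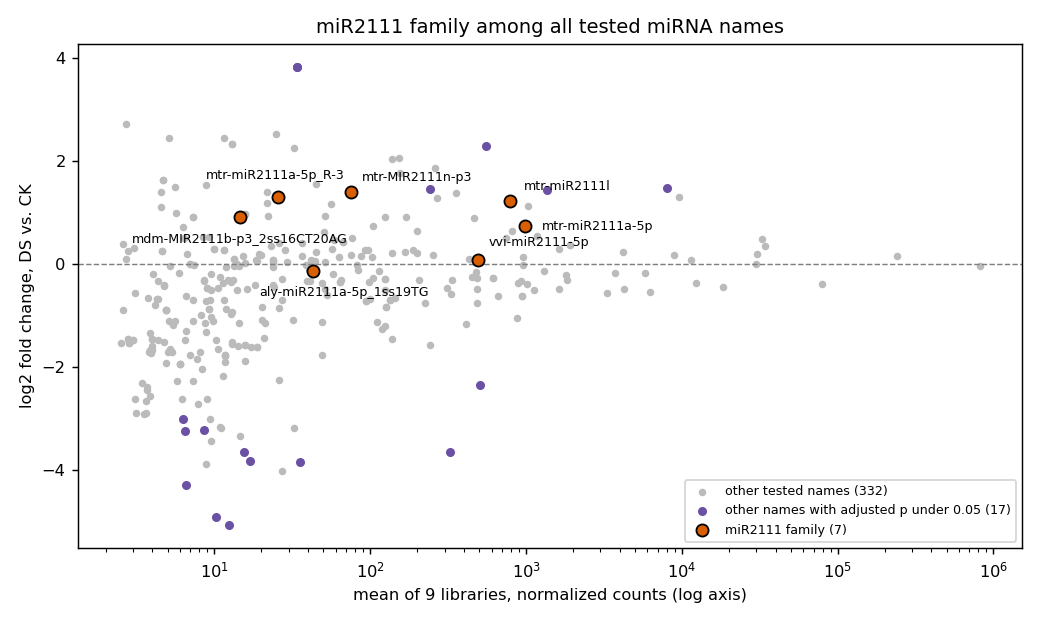
Log2 difference of DS vs. CK (vertical axis) against the mean of the 9 libraries (horizontal log axis, normalized counts) for the 339 tested names. The 7 miR2111 members are orange, and other names with a limma adjusted p under 0.05 are purple. The members lie at or above 0 except aly-miR2111a-5p_1ss19TG at -0.14, while the median of all tested names is -0.36.

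RW vs. DS sets leaves after 2 days of water beside drought-stressed leaves sampled 2 days earlier. No member passed the test in this comparison (0 of 7 in limma, against 2.36% of all tested names). At an unadjusted p under 0.05, mtr-MIR2111n-p3 and mtr-miR2111a-5p_R-3 were lower in RW, which is 2 of 7 members, against 14.2% of all tested names that reached this level in either direction, and the pairwise test of the methods called none, against 3.53% of all 595 names.

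mtr-MIR2111n-p3 had 87.4, 20.3 and 59.2 normalized counts in RW leaves, against 131, 121 and 109 in DS leaves. Every RW library was below every DS library, and the spread in RW (55.6 ± 33.7, SD, n = 3) was wider than in DS (120 ± 11.0, SD, n = 3). The log2 difference was -1.32 (SE 0.57, limma adjusted p = 0.303), and -0.73 without RW replicate 2. mtr-miR2111a-5p_R-3 had 12.0, 20.8 and 12.3 in RW leaves, against 31.5, 29.5 and 69.6 in DS leaves, again without overlap, and its log2 difference was -1.41 (SE 0.61, limma adjusted p = 0.303). Groups that did not overlap in this direction were found for 2 of the 7 members and for 6.19% of all tested names.

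The other members overlapped between RW and DS. mtr-miR2111l, which had passed in DS vs. CK, had 673, 1041 and 684 normalized counts in RW leaves, against 1126, 1392 and 776 in DS leaves, a log2 difference of -0.45 (SE 0.31, 95% interval -1.12 to 0.23), which was -0.26 without DS replicate 2. mtr-miR2111a-5p had 762, 1085 and 996 in RW leaves, against 1816, 887 and 1105 in DS leaves, a log2 difference of -0.37 (SE 0.32), which was -0.079 without DS replicate 1. For vvi-miR2111-5p, aly-miR2111a-5p_1ss19TG and mdm-MIR2111b-p3_2ss16CT20AG the differences were -0.80, -0.60 and -0.49. The limma adjusted p-values of these 5 members were 0.403 to 0.795. All 7 differences were negative, with a median of -0.60, whereas the median of all tested names was 0.16 and 59.3% of them were positive. As in DS vs. CK, the members are not independent and the count is a description. With 1 library left out, aly-miR2111a-5p_1ss19TG turned to 0.040 (without DS replicate 1) and mdm-MIR2111b-p3_2ss16CT20AG to 0.051 (without RW replicate 1). This comparison uses the same DS libraries as DS vs. CK.

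In RW vs. CK, which sets leaves after recovery beside leaves that were never dry, no member passed in limma (0 of 7, against 5.31% of all tested names), and the pairwise test of the methods called none, against 6.72% of all 595 names. mtr-miR2111l had 673, 1041 and 684 normalized counts in RW leaves, against 398.6, 577 and 420 in CK leaves. Every RW library was above every CK library, which held for 1 of the 7 members and 10.3% of all tested names. The means were 799 ± 210 and 465 ± 97.6 (SD, n = 3 each), and the log2 difference of 0.77 (SE 0.31, 95% interval 0.09 to 1.44) had a limma adjusted p of 0.253 and an unadjusted p of 0.0291. It was the only member under 0.05 unadjusted, a level that 15.6% of all tested names reached.

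The remaining members lay on both sides of 0 in RW vs. CK. mtr-miR2111a-5p averaged 947 ± 166.5 in RW and 743 ± 170 in CK (SD, n = 3 each), and its log2 difference was 0.36 (SE 0.32). vvi-miR2111-5p averaged 338 ± 141 in RW and 543 ± 179 in CK, with a log2 difference of -0.73 (SE 0.45), and aly-miR2111a-5p_1ss19TG averaged 28.7 ± 9.52 in RW and 47.7 ± 12.3 in CK, with -0.74 (SE 0.58). RW replicate 2 was the lowest of the 9 libraries for both of these forms, and without it the differences were -0.32 and -0.44. mdm-MIR2111b-p3_2ss16CT20AG, mtr-MIR2111n-p3 and mtr-miR2111a-5p_R-3 had log2 differences of 0.42, 0.08 and -0.11. The median of the members was 0.08 with 4 positive and 3 negative, beside a median of -0.11 and 41.3% positive among all tested names.

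**Figure D3:**
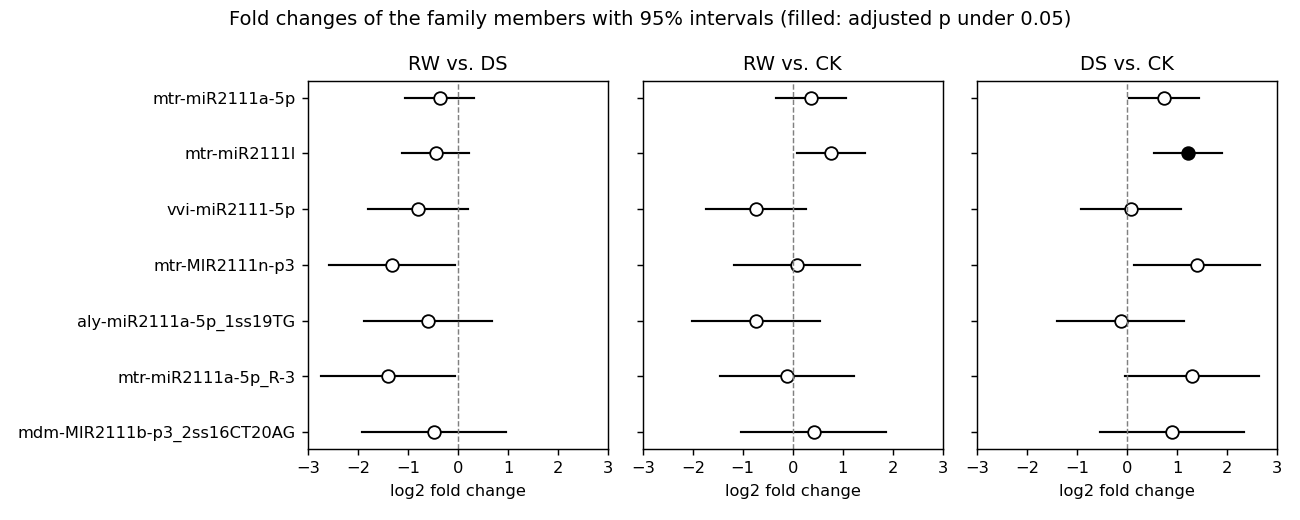
Log2 difference (points) with 95% intervals (lines) of the 7 miR2111 members in RW vs. DS, RW vs. CK and DS vs. CK, from limma on log2 (value + 1), positive when the first group is higher. The single filled point, mtr-miR2111l in DS vs. CK at 1.22, passed the adjusted threshold, and all 7 points lie below 0 in RW vs. DS.

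In the joint test of the 3 groups no member passed in limma, against 7.08% of all tested names. mtr-miR2111l came closest, with a limma adjusted p of 0.0746 and an unadjusted p of 0.00705. It was the only member under 0.05 unadjusted, against 18.9% of all tested names. It passed in that test when DS replicate 3 was left out and when the replicate number was fitted as a block. A 1-way test of the 3 groups on the deposited values, with an unadjusted threshold of 0.05, called 2 members, mtr-miR2111l and mtr-MIR2111n-p3, against 10.1% of all 595 names.

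Ratios within a library do not depend on the factor by which the authors scaled it. Of the summed 5p strand, mtr-miR2111a-5p made up 63.8, 83.4 and 66.8% in RW, 62.5, 65.9 and 67.9% in DS and 48.1, 58.7 and 59.7% in CK. Every RW and every DS library was above every CK library, with a narrow gap between the lowest DS and the highest CK library. As shares of a sum they depend on each other, and mtr-miR2111a-5p was itself higher on average in RW and DS than in CK, without passing the test. The ratio of vvi-miR2111-5p to mtr-miR2111a-5p was 0.510, 0.164 and 0.448 in RW, 0.525, 0.458 and 0.383 in DS and 0.964, 0.626 and 0.606 in CK. CK replicate 1 and RW replicate 2 were the extremes. This ratio was chosen after the values of the members had been seen and is given without a test.

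The form with T19G followed the form with T19C. The ratio of aly-miR2111a-5p_1ss19TG to vvi-miR2111-5p lay between 0.0581 and 0.110 in all 9 libraries, with group means of 0.0882 in RW, 0.0799 in DS and 0.0895 in CK. Values of these 2 names fell between whole steps in 6 of the 9 libraries, and those of the other members in 0 of 9. The methods and labels did not state how reads that match several names were divided, so the values of the position-19 forms are less certain than those of mtr-miR2111a-5p.

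The summed 3p strand amounted to 0.636, 0.816 and 0.498 of the summed 5p strand in RW, 0.433, 1.12 and 0.544 in DS and 0.307, 0.406 and 0.456 in CK. All RW libraries were above all CK libraries, whereas DS replicate 1 lay within the CK range. The ratio of DS replicate 2 stood apart, as this library had the highest value of mtr-miR2111l and the lowest DS value of mtr-miR2111a-5p. Within the 3p strand, mtr-miR2111l held 85.6 to 98.1% in every library. Set against mtr-miR2111a-5p alone, mtr-miR2111l was at 0.883, 0.960 and 0.686 in RW, 0.620, 1.57 and 0.703 in DS and 0.546, 0.628 and 0.725 in CK, and the groups overlapped. As mtr-miR2111l was matched to no transcript, its own partner among the 5p forms was not identified. mtr-MIR2111n-p3, matched to the same transcript as mtr-miR2111a-5p, was at only 0.0187 to 0.137 of it. The strand whose main form rose in DS vs. CK was therefore present at the level of the guide strand or below it, except in DS replicate 2.

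**Figure D4:**
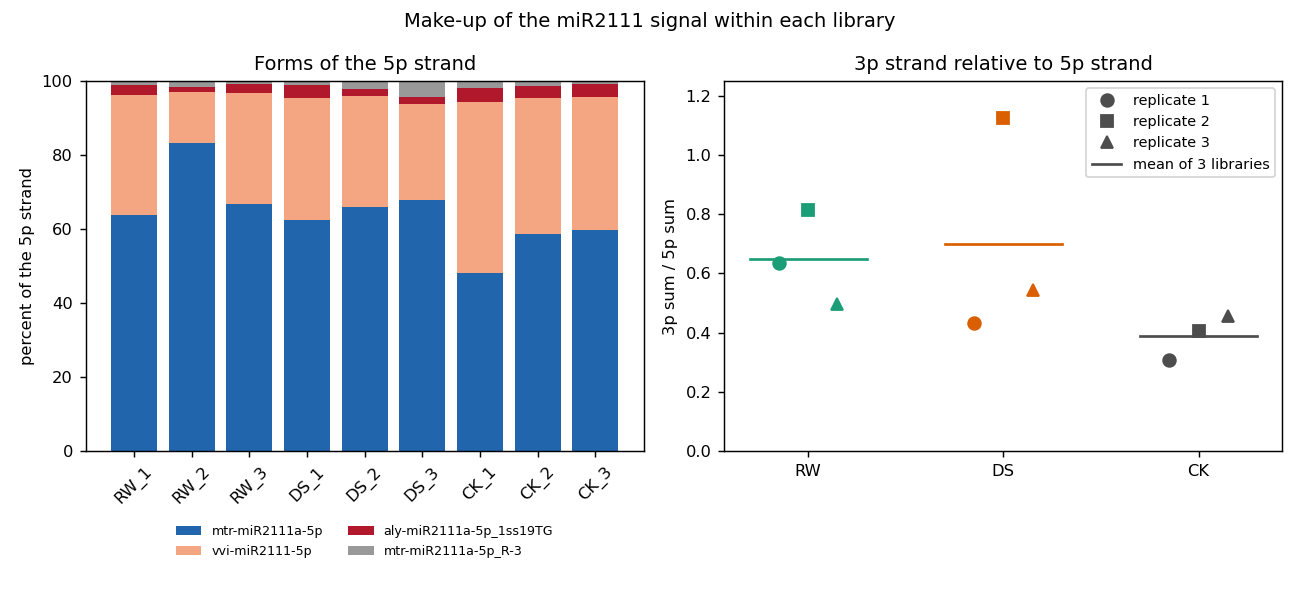
Left, percent of the summed 5p strand held by each of its 4 forms in the RW, DS and CK libraries. Right, summed 3p strand over summed 5p strand, with bars at the group means. mtr-miR2111a-5p takes 62.5% or more in every RW and DS library and 59.7% or less in every CK library, and DS replicate 2 has the highest 3p ratio, 1.12.

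The members did not all follow mtr-miR2111l from library to library. Pearson's r of log2 (value + 1) with mtr-miR2111l over the 9 libraries was 0.72 for mdm-MIR2111b-p3_2ss16CT20AG, 0.68 for mtr-miR2111a-5p, 0.43 for mtr-miR2111a-5p_R-3, 0.38 for mtr-MIR2111n-p3, -0.16 for vvi-miR2111-5p and -0.21 for aly-miR2111a-5p_1ss19TG. The 2 position-19 forms were thus the least like mtr-miR2111l. With mtr-miR2111a-5p, r was positive for every other member, from 0.32 for vvi-miR2111-5p to 0.68 for mtr-miR2111l. It was 0.40 for aly-miR2111a-5p_1ss19TG. These are descriptions over libraries that fall into 3 groups and share 1 normalization.

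Of the tested names outside the family, the 5 most like mtr-miR2111l belonged to other families. vvi-miR3630-3p_L+3R-1_1ss5TG and han-miR3630-3p_L+3R-1_1ss24TA, which carry the same values, had r = 0.87 and averaged 28.9 ± 13.3 in RW, 68.2 ± 33.2 in DS and 3.91 ± 2.80 in CK (SD, n = 3). They belong to a fragment-like family. cst-MIR11334-p5_2ss8TG17TC, listed at 0 in all CK libraries, had r = 0.83. It averaged only 2.54 in RW and 5.61 in DS, close to the smallest listed values there (2.30 to 3.09 and 3.94 to 4.21). lja-MIR11145b-p3_2ss16TA20AT and lja-MIR11145b-p5_2ss16TA20AT, again with the same values as each other, had r = 0.82.

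Other miRNAs of nutrient status and nodulation were set beside the family by lists of family numbers. Apart from miR2111, the phosphate starvation list held 5 names, all of miR399, whose family silences a ubiquitin-conjugating enzyme that limits phosphate uptake, and none of miR827 or miR778. Only 2 of the 5 were tested and none passed in any comparison. mtr-miR399q had 8.28, 0 and 6.17 normalized counts in RW, was listed at 0 in all DS libraries, and had 43.8, 0 and 27.2 in CK. mtr-miR399l was above 0 in 2 RW, 1 DS and 3 CK libraries. Unlike every miR2111 member, these names were thus listed at 0 in at least 2 DS libraries, where the smallest listed values were 3.94 to 4.21. Values of 0 were common there, as only 283 to 305 of the 595 names were above 0 in a DS library. The miR399 names were also scarce in CK, with means of 1.91 to 23.7, against 9.90 to 743 for the miR2111 members. The part of abundance in this contrast was not tested.

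The list of sulfate, copper and nitrogen status held 17 names, of which 9 were tested. Apart from the miR395 name mdm-MIR395k-p5_2ss12TC20TC, the tested names were all of miR398, miR408 or miR2119. The miR395 name passed in no comparison (DS vs. CK log2 difference 0.24, limma adjusted p = 0.948). The calls are therefore all of miR398, miR408 and miR2119, and they include both strands of miR398a. Of the tested names, none was higher and 4 were lower in DS vs. CK, beside 5.31% of all tested names called in either direction. In RW vs. CK 4 were lower, again beside 5.31%, and in RW vs. DS none passed, beside 2.36%. Its most abundant lowered member in DS, mtr-miR398a-3p_L+1R-1, whose family silences copper superoxide dismutases, had 58.3, 55.6 and 91.0 normalized counts in DS, against 1071, 841 and 696 in CK (log2 difference -3.66, limma adjusted p = 0.00798). The direction was opposite to that of mtr-miR2111l in the same comparison.

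The list of nodulation miRNAs of legumes held 96 names, of which 74 were tested. It is not specific to nodulation, as it was drawn up by family number and holds families with other targets, such as miR166 and miR1510. In DS vs. CK none was higher and 1 was lower, mtr-MIR1510b-p5_1ss22CT (log2 difference -2.35, limma adjusted p = 0.0144), whose family silences NBS-LRR immune receptor genes. This is 1 of 74, below the 5.31% of all tested names called there. mtr-miR166a_R+4, a longer form of the miRNA that silences HD-ZIP III transcription factors, was the only name higher in RW vs. CK and in RW vs. DS (log2 differences 2.84 and 2.99, limma adjusted p = 0.0159 and 0.0175), beside 5.31% and 2.36% of all tested names called in these comparisons. The median log2 difference of the list in DS vs. CK was -0.41, close to the -0.36 of all tested names, beside 0.90 for the miR2111 members.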

How the data were processed

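Small RNA libraries were made from 5 µg of total leaf RNA. With ACGT101-miR, the authors filtered out adapter dimers, junk, repeats and abundant RNA classes and searched sequences 18 to 25 nt long against miRBase precursors and assembled transcripts. The deposited values are a signal, made by the authors from read counts with a separate factor for every library, and the choice of factor was not stated. The study reports valid reads by group, fewest in DS and most in CK, but the reads behind each value were not recovered. The table held 667 lines, 595 names and 543 sequences, and each name was used once.

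The 339 names that reached 5 in 3 or more of the 9 libraries were tested on log2 (value + 1) in limma 3.58.1 (R 4.3.3) with a trended variance, all 3 groups being fitted at once. p-values were adjusted by Benjamini-Hochberg over all tested names with a threshold of 0.05. Fold changes on this scale understate those of low values. The study's own pairwise test on unadjusted p-values was run with unequal variances on all names, and exact permutation tests in scipy 1.17.1. No count test was run, since whole reads were not recovered.

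The text names all members, the 5 most similar names, and of each list the most abundant or called names. The members and lists were chosen with earlier results of these data known. Alternatives were pseudocounts of 0.1, 0.5 and 5, no filter or a minimum of 20, 3 scalings, a replicate block, only the groups compared, merged sequences, omission of the fragment-like families, omission of single libraries and, added after seeing the data, a common floor for low values, and a 1-way test of the 3 groups on unadjusted p-values.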

Additional observations from a re-analysis of the deposited data

How the results depend on the processing

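The count of members called in DS vs. CK was 1 as reported and 0 when scaled to the total of the table, under TMM scaling, in fits of DS and CK alone and without the fragment-like families. It was 0 to 1 when each library was left out in turn. In 9 of 13 limma settings besides these omissions, mtr-miR2111l kept its call, and the test of the methods called mtr-MIR2111n-p3 in its place. The counts in RW vs. DS and RW vs. CK were 0 under every alternative run. The joint count of 0 became 1 under the replicate block and 2 in the 1-way test on unadjusted p-values, and was 0 to 1 when each library was left out.

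Directions turned only for differences that had not passed. In DS vs. CK, vvi-miR2111-5p was -0.025 under TMM scaling and -0.33 to 0.28 when each library was left out, and aly-miR2111a-5p_1ss19TG was -0.78 to 0.27. In RW vs. CK, the left-out range was -0.40 to 0.67 for mtr-MIR2111n-p3 and -0.66 to 0.29 for mtr-miR2111a-5p_R-3. In RW vs. DS it was -1.01 to 0.040 for aly-miR2111a-5p_1ss19TG and -0.84 to 0.051 for mdm-MIR2111b-p3_2ss16CT20AG. The cause was not tested.

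No source says that replicate numbers pair libraries, and deviations of same-numbered libraries correlated at -0.15 to 0.06. With the replicate block, 1 member was called in DS vs. CK, 0 in both other pairs and 1 in the joint test (mtr-miR2111l).

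mdm-MIR2111b-p3_2ss16CT20AG could not be tested at a minimum of 20. The planned count tests were not run. The libraries are whole leaves, so fewer cells of a type and less RNA per cell cannot be told apart.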
